A study of Mus musculus with 8 samples.

Results

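The mitochondrial carriers of the SLC25 family were followed in B16 mouse melanoma cells with and without an edited Mettl5 gene. Every gene of the deposited table whose symbol is Slc25a followed by a number was taken, which gave 36 of 10453 genes. The RefSeq annotation of the mouse assembly GRCm38.p6 lists 47 such symbols, and the other 11 were not analysed here (Slc25a2, Slc25a18, Slc25a21, Slc25a27, Slc25a31, Slc25a34, Slc25a36, Slc25a41, Slc25a48, Slc25a53 and Slc25a54). The 36 carriers lie on 18 chromosomes and were sorted by their known cargo into 12 nucleotide and cofactor carriers, 10 amino acid and glutathione carriers, 4 carboxylate and acylcarnitine carriers, 1 phosphate carrier, 2 metal carriers, 2 uncoupling-protein-like carriers and 5 that act at the outer membrane or are little characterised.

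SLC25 proteins sit mostly in the inner mitochondrial membrane, which small charged molecules do not cross unaided. They exchange ADP for ATP, bring in phosphate, move citrate, malate and oxoglutarate for the tricarboxylic acid cycle and the redox shuttles, and carry amino acids, nucleotides, cofactors, glutathione and iron. All are encoded by nuclear genes and translated on cytosolic ribosomes, the ribosomes on which METTL5 acts, since this enzyme methylates an adenosine (m6A) in the 18S rRNA of the small subunit.

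The study measured input RNA and ribosome footprints, the mRNA fragments that ribosomes protect from nuclease, in 8 libraries. The 4 groups were KO footprints, KO input, WT footprints and WT input, with 2 libraries each. KO cells are B16 cells in which Mettl5 was targeted with CRISPR/Cas9, and WT cells are B16 cells with the wild-type genotype. All cells of both genotypes received cycloheximide, which halts ribosomes on mRNA, before lysis. The labels do not say whether the KO cells are a single clone, nor whether the 2 libraries of a group came from separate cultures, so p-values measure only how far these libraries spread, and that spread may be technical.

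The values are normalized reads per gene, from which whole reads could be recovered. KO input libraries held 18823632 and 14835551 reads and WT input libraries 14402586 and 11927567, while KO footprint libraries held 2344656 and 2279456 and WT footprint libraries 3098930 and 2862517. Replicates differed by slightly more than counting error in every group, with chi-square values of 1.10 to 1.22 per degree of freedom. Mettl5 itself averaged 85.7 normalized reads in KO input and 112 in WT input (log2 fold change -0.40 ± 0.10 SE, adjusted p = 0.00162, limma with Benjamini-Hochberg adjustment). Its footprints averaged 110.4 in KO and 102 in WT (adjusted p = 0.812), so these counts do not check the edit. All 7 melanocyte markers searched were measured, at 1342 normalized reads or more in every library. Their summed level was 78184 to 78500 in KO input against 69308 to 69709 in WT input, and 188342 to 189927 in KO footprints against 142768 to 143295 in WT footprints. Mitf alone was lower in KO input (mean 2540 against 2725 in WT), and Mlana alone in KO footprints (3341 against 3610). The 4 fibroblast markers summed to 69.9 to 76.2 in KO input against 90.8 to 93.4 in WT input, and to 62.0 to 99.98 in KO footprints against 121 to 133 in WT footprints. In input only Postn was lower without overlap (mean 19.5 in KO and 40.9 in WT). Col1a2 was higher in KO input (38.3 against 35.1), and Col1a1 and Pdgfra overlapped. Of other markers, 1 of 4 for leukocytes and 2 of 5 for epithelium and endothelium were measured, at 17.7 or less. Whether these markers have a part in the carrier results was not tested. In bulk cells a smaller share of cells with an mRNA and less of it per cell cannot be told apart.

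In input RNA, 8 carriers rose and 3 fell in KO cells. Among those that rose were Slc25a23, Slc25a39, Slc25a22, Slc25a1, Slc25a5, Slc25a11 and Slc25a3, and those that fell were Slc25a40, Slc25a13 and Slc25a32. The largest change was 1.33-fold, for Slc25a23. In footprints, 1 carrier rose (Slc25a12) and 3 fell (Slc25a4, Slc25a10 and Slc25a11). In translational efficiency, the footprint change relative to the input change, 4 carriers fell (Slc25a4, Slc25a10, Slc25a11 and Slc25a39) and 0 rose.

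The shares called in either direction stood close to those over all genes. The 11 carriers called in input are 30.6% of the family, where 36.4% of all genes tested were called. By direction, 22.2% of the carriers were higher and 8.33% lower in KO input, where 17.9% and 18.6% of all genes were. The 4 called in footprints are 11.1%, where 12.5% of all genes were called, with 2.78% of the carriers higher and 8.33% lower, beside 6.3% and 6.22% of all genes. The 4 called in translational efficiency are likewise 11.1%, where 9.78% of all genes were called, all 4 of them lower, while 5.11% of all genes were higher and 4.66% lower. Whether these shares by direction differ from those of all genes was not tested. A gene was called at an adjusted p below 0.05 (limma on log2 of the value + 1, Benjamini-Hochberg over all genes tested), and all 36 carriers passed the filter of a mean value of at least 1. The carriers' median log2 fold change in input was 0.048, beside 0.0022 over all genes. It was -0.059 in footprints (0.0047 over all genes) and -0.11 in translational efficiency (0.0050 over all genes). All KO input values lay above all WT values in 16 carriers (44.4%) and below them in 5 (13.9%), where 33.4% and 33% of all genes showed the same. For footprints these counts were 6 (16.7%) and 11 carriers (30.6%), where 27% and 25.6% of all genes showed the same. In all, 14 carriers were called in at least 1 comparison and 22 in none. Without the variance trend, limma kept 3 of the 11 input calls (Slc25a13, Slc25a39 and Slc25a40), 0 of the 4 footprint calls and 1 of the 4 in translational efficiency (Slc25a11). DESeq2 on the recovered reads kept 6 in input, 1 in footprints (Slc25a4) and all 4 in translational efficiency.

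**Figure D1:**
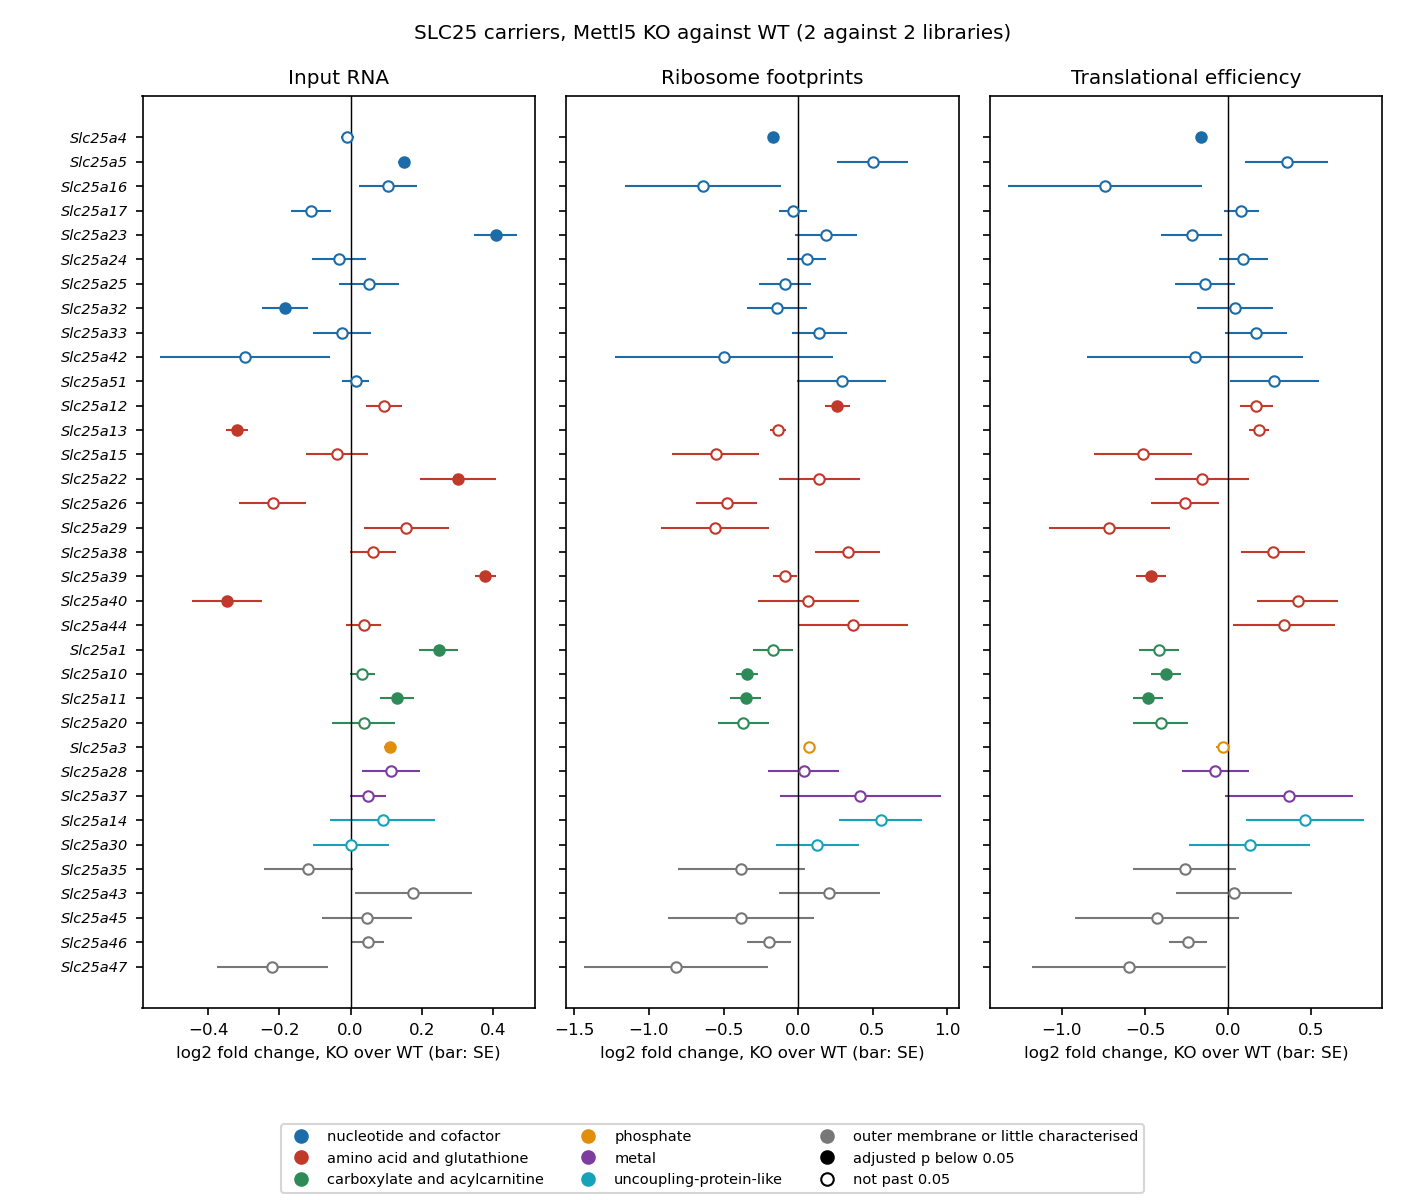
Log2 fold change (KO over WT) of the carriers reported here, with panels for input RNA, ribosome footprints and translational efficiency, with bars for the SE and filled points for an adjusted p below 0.05. Input bars are short and footprint bars long, 4 points are filled in each of the footprint and efficiency panels, and the 4 carboxylate and acylcarnitine carriers all lie below 0 in the footprint and efficiency panels.

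The sequences around the transcription start are shown for the 4 carriers whose translational efficiency fell, for Slc25a12, whose footprints rose, and for Slc25a5, which of the carriers had the fewest footprints for its mRNA level. The first bases of an mRNA are of interest because a C followed by a run of pyrimidines there marks the TOP mRNAs, whose translation is regulated as a group. Each line gives 60 bases before and 30 bases from the start of a RefSeq transcript in GRCm38.p6, 5′ to 3′ on the strand of the gene. The first 10 bases of the annotated transcript are in capitals. Whether B16 cells use these annotated starts was not tested.
Slc25a4 (chr8:46211033-46211122, minus strand): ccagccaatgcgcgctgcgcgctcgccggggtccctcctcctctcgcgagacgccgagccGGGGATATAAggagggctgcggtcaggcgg
Slc25a5 (chrX:36795537-36795626, plus strand): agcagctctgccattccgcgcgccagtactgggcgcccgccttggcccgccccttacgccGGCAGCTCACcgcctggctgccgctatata
Slc25a12 (chr2:71367726-71367815, minus strand): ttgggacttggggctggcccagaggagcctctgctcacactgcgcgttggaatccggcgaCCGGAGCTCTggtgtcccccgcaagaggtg
Slc25a39 (chr11:102407488-102407577, minus strand): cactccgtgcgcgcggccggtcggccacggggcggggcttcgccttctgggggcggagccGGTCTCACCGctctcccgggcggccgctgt
Slc25a10 (chr11:120491777-120491866, plus strand): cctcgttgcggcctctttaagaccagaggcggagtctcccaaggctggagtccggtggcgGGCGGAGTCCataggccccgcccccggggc
Slc25a11 (chr11:70647010-70647099, minus strand): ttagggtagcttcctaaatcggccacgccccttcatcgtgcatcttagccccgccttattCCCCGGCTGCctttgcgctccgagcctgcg
At the annotated start, Slc25a4, Slc25a5, Slc25a39 and Slc25a10 have a G. Slc25a12 has a run of 2 pyrimidines there and Slc25a11 a run of 4, both counted with the first C. A start with C and at least 4 further pyrimidines was found in 1 of the 28 carriers with a promoter in the RefSeq table (3.57%), Slc25a45, and in 3.01% of all 27025 genes in it. The starts printed for Slc25a11, Slc25a12 and Slc25a39 lie inside the annotated gene span, which also covers other transcripts.

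Among the nucleotide and cofactor carriers, 3 of 12 rose in input (Slc25a5 and Slc25a23 among them) and 1 fell (Slc25a32), while 1 fell in footprints and in translational efficiency (Slc25a4). Slc25a4 and Slc25a5 encode ANT1 and ANT2, the adenine nucleotide translocases that pass ATP out of the mitochondrion and ADP in. Slc25a4 (ENSMUSG00000031633.4, chr8:46207168-46211062) had 3895 and 3798 normalized reads in KO input, against 3817 and 3923 in WT input. Its footprints were 9501 and 9641 in KO, against 10919 and 10635 in WT. The input values overlapped between genotypes, while both KO footprint values lay below both WT values. Footprints fell to 0.888 times the WT level (log2 fold change -0.17 ± 0.025 SE, adjusted p = 2.42e-05) with an input change of -0.0089 ± 0.019 (adjusted p = 0.755). Translational efficiency fell by 0.16 on the log2 scale (SE 0.033, adjusted p = 0.0135), a call that was lost without WT input replicate 1 (adjusted p = 0.0729) or KO input replicate 1 (adjusted p = 0.0653). Here and below, leaving out a library leaves 1 in its group, which is then assumed to vary like the others. The spread then comes from the other libraries of the fit and from the trend over genes.

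Slc25a5 (ENSMUSG00000016319.3, chrX:36795597-36798808) had 5921 and 5850.3 normalized reads in KO input, against 5300.3 and 5314 in WT input, and rose 1.11-fold (log2 fold change 0.15 ± 0.016, adjusted p = 8.2e-10). Its footprints were 137 and 151 in KO, against 131 and 78.2 in WT, from 99 recovered reads in KO and 96 in WT. Both KO footprint values were the higher ones, but WT replicates differed by more than KO and WT replicate 1 did, and the change did not pass the test (0.50 ± 0.24, adjusted p = 0.201). Its translational efficiency was called higher without WT footprint replicate 1 (log2 change 0.72, adjusted p = 0.00314). The footprint value was thus 0.0244 of the input value in KO and 0.0197 in WT, and 69 genes in KO and 64 in WT of the 10453 had a lower ratio. Slc25a4 stood near the other end, with a ratio of 2.49 in KO and 2.78 in WT, above 88.5% and 90.3% of genes. The proteins of both genes are close paralogs and RefSeq lists a pseudogene of Slc25a5, so reads that match several copies may have been split or lost, and how such reads were counted is not given in the sources used here. The part of shared reads in this ratio was not tested.

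Of the other nucleotide and cofactor carriers, Slc25a23 encodes a calcium-regulated exchanger of ATP-Mg for phosphate. Slc25a23 (chr17:57043711-57059909) had 287 and 304 normalized reads in KO input, against 209.9 and 236 in WT input, with no overlap, and rose 1.33-fold (log2 fold change 0.41 ± 0.060, adjusted p = 6.81e-07). Its footprints, 160.0 and 130.0 in KO against 134 and 119.5 in WT, overlapped (0.19 ± 0.21, adjusted p = 0.64). Its relatives Slc25a24 and Slc25a25, which carry the same cargo, were called in no comparison, with input changes of -0.033 ± 0.076 and 0.053 ± 0.085.

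Slc25a32 carries folate and FAD. Slc25a32 (chr15:39091230-39112720) had 181 and 184 normalized reads in KO input, against 205 and 209.6 in WT input, with no overlap, and fell to 0.880 times the WT level (log2 fold change -0.18 ± 0.065, adjusted p = 0.0235). The call was lost without WT input replicate 2 (adjusted p = 0.0885), KO input replicate 1 (0.124) or KO input replicate 2 (0.075). Its footprints, 126 and 183 in KO against 161 and 175 in WT, overlapped (adjusted p = 0.729). Slc25a16, Slc25a17, Slc25a33, Slc25a42 and Slc25a51 were called in no comparison. Slc25a17, the peroxisomal carrier of CoA, FAD and NAD+, had a footprint to input ratio of 2.47 in KO and 2.34 in WT, and Slc25a51, the NAD+ importer, 0.136 in KO and 0.113 in WT.

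**Figure D2:**
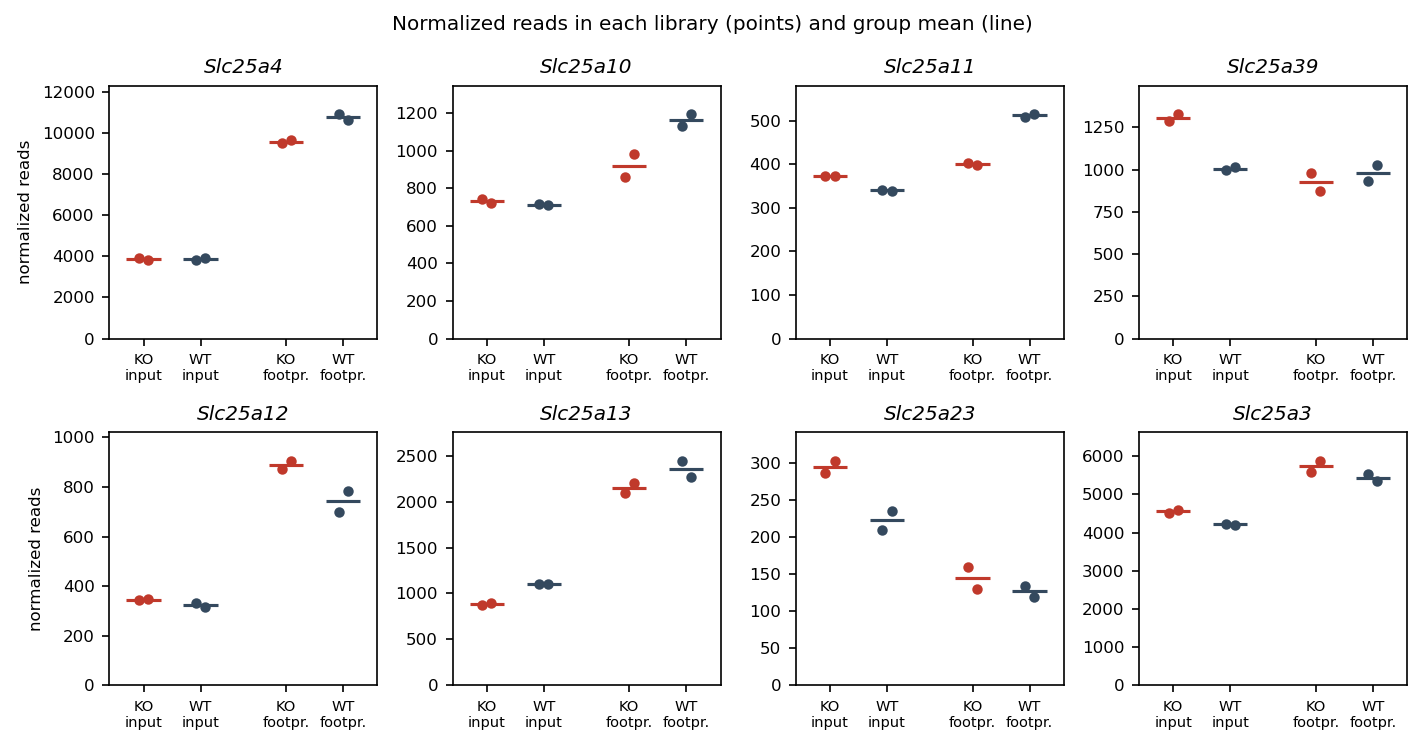
Normalized reads of 8 carriers in each library (points) with the mean of the 2 libraries of a group (lines), for KO and WT input and for KO and WT footprints (vertical axes start at 0 and differ between panels). KO footprints lie below WT footprints for Slc25a4, Slc25a10 and Slc25a11 and above them for Slc25a12, and KO input lies above WT input for Slc25a39 and Slc25a23 and below it for Slc25a13.

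Among the 10 amino acid and glutathione carriers, 2 rose in input (Slc25a22 and Slc25a39) and 2 fell (Slc25a13 and Slc25a40), 1 rose in footprints (Slc25a12), and 1 fell in translational efficiency (Slc25a39). Slc25a12 (aralar) and Slc25a13 (citrin) encode the paralogous aspartate/glutamate carriers of the malate-aspartate shuttle. Slc25a13 (ENSMUSG00000015112.15, chr6:6041218-6217304) had 874 and 896 normalized reads in KO input, against 1106 and 1101 in WT input. Its footprints were 2097 and 2204 in KO, against 2450.0 and 2271 in WT. KO values were the lower ones in both kinds of library. The input fell to 0.802 times the WT level (log2 fold change -0.32 ± 0.030, adjusted p = 3.32e-11), while the footprint change of -0.13 ± 0.052 did not pass (adjusted p = 0.0954), nor did the translational efficiency change of 0.18 ± 0.063 (adjusted p = 0.0997). The footprint change was called lower with edgeR (adjusted p = 0.0486) and without KO footprint replicate 2 (0.0395). The translational efficiency change was called higher with limma-voom (adjusted p = 0.0337), with the standard errors of separate fits combined (0.0343) and without WT footprint replicate 1 (0.0386).

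Slc25a12 (ENSMUSG00000027010.16, chr2:71274270-71367781) had 342 and 347 normalized reads in KO input, against 330.4 and 315 in WT input (log2 fold change 0.094 ± 0.050, adjusted p = 0.143). Its footprints were 871 and 907 in KO, against 699 and 784 in WT, with no overlap. They rose 1.20-fold (0.26 ± 0.083, adjusted p = 0.0366), a call that was lost without WT footprint replicate 1 (adjusted p = 0.356) or KO footprint replicate 2 (0.108). Its translational efficiency change was 0.17 ± 0.10 (adjusted p = 0.323). The ratio of the values of Slc25a12 and Slc25a13, which are not corrected for length and serve only to compare libraries, was in input 0.391 and 0.388 in KO libraries, against 0.299 and 0.286 in WT libraries. In footprints it was 0.416 and 0.412 in KO, against 0.285 and 0.345 in WT. Both ratios were higher in KO without overlap, and the two-sided exact permutation test gave p = 0.333 in each case, the smallest that 2 against 2 libraries allow (adjusted p = 0.444 over the 8 ratios tested, from 4 pairs of carriers in both kinds of library). Of the other pairs, Slc25a4 over Slc25a5 was lower in KO without overlap in both kinds, while Slc25a28 over Slc25a37 overlapped in both (exact permutation p = 0.667). Since its p cannot fall below 0.333 here, the permutation test cannot decide whether a ratio differs. How often the ratios of other gene pairs separate without overlap was not counted.

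Slc25a39 and Slc25a40 are paralogs, and SLC25A39 is needed for the import of glutathione into mitochondria. Slc25a39 (ENSMUSG00000018677.9, chr11:102402969-102408675) had 1285 and 1329 normalized reads in KO input, against 996 and 1013 in WT input. Its footprints were 977 and 874 in KO, against 935 and 1030.0 in WT. Input values were higher in KO with no overlap, and footprint values overlapped. The input rose 1.30-fold (log2 fold change 0.38 ± 0.029, adjusted p = 7.75e-14) with a footprint change of -0.086 ± 0.079 (adjusted p = 0.557), and translational efficiency fell by 0.47 on the log2 scale (SE 0.088, adjusted p = 0.0103). This last call was lost without KO input replicate 2 (adjusted p = 0.054).

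Slc25a40 (ENSMUSG00000054099.11, chr5:8422730-8454839) had 74.8 and 75.8 normalized reads in KO input, against 94.2 and 98.0 in WT input, and fell to 0.786 times the WT level (log2 fold change -0.35 ± 0.10, adjusted p = 0.00509). The call was lost with DESeq2 (adjusted p = 0.13) and with input and footprints fitted together (0.338), at log2 changes of -0.35 in both. Its footprints, 48.6 and 44.3 in KO against 42.4 and 46.0 in WT, overlapped (adjusted p = 0.932). The paralogs thus moved in opposite directions in input. The ratio of the values of Slc25a39 and Slc25a40, likewise not corrected for length, was 17.2 and 17.5 in KO input and 10.6 and 10.3 in WT input. In footprints the ratio was 20.1 and 19.7 in KO, against 22.0 and 22.4 in WT, on 32 recovered reads of Slc25a40 in KO and 40 in WT. Each of these ratios separated the genotypes without overlap, again at the smallest possible exact permutation p of 0.333 (adjusted p = 0.444). This test again cannot decide whether the ratios differ.

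Slc25a22 encodes a glutamate carrier. Slc25a22 (chr7:141429749-141437874) had 82.5 and 81.3 in KO input, against 69.4 and 63.3 in WT input, and rose 1.23-fold (adjusted p = 0.0246). The call was lost without WT input replicate 2 (adjusted p = 0.145), KO input replicate 1 (0.126) or KO input replicate 2 (0.0966), and its footprints overlapped (103 and 70.9 in KO against 74.2 and 80.5 in WT). The other 5 of the class were called in no comparison. They were Slc25a15 (ornithine), Slc25a26 (S-adenosylmethionine), Slc25a29 (basic amino acids), Slc25a38 (glycine) and Slc25a44 (branched-chain amino acids). Slc25a15 had footprints of 54.3 and 62.0 in KO, against 106 and 69.0 in WT (log2 fold change -0.55 ± 0.29, adjusted p = 0.257), and Slc25a26 of 129 and 103 in KO, against 159 and 163 in WT (-0.48 ± 0.21, adjusted p = 0.145). Slc25a29 had footprints of 45.7 and 26.6 in KO, against 50.9 and 52.9 in WT (-0.56 ± 0.36, adjusted p = 0.372), and Slc25a38 of 131 and 157 in KO, against 125 and 103 in WT (0.33 ± 0.22, adjusted p = 0.371). In the class as a whole both KO footprint values lay below both WT values in 4 of 10 (Slc25a13, Slc25a15, Slc25a26 and Slc25a29), where 25.6% of all genes did, and above them in 2 (Slc25a12 and Slc25a38), where 27% of all genes did.

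The 4 carboxylate and acylcarnitine carriers all had higher input and lower footprints in KO on average. The input changes of Slc25a10 (log2 fold change 0.033 ± 0.035) and Slc25a20 (0.037 ± 0.088) were smaller than their SE, and the input libraries of Slc25a20 overlapped. In input 2 rose (Slc25a1 and Slc25a11), in footprints 2 fell (Slc25a10 and Slc25a11), and in translational efficiency the same pair as in footprints fell, with the 4 changes between -0.48 and -0.38 and a median of -0.41. In all 4, both KO footprint values lay below both WT values, which 25.6% of all genes showed. Slc25a11 encodes the malate/oxoglutarate carrier, the partner of the aspartate/glutamate carriers in the malate-aspartate shuttle. Slc25a11 (ENSMUSG00000014606.14, chr11:70644019-70647531) had 372 and 372 normalized reads in KO input, against 342 and 338 in WT input. Its footprints were 403 and 399 in KO, against 509 and 515 in WT. Neither kind overlapped between genotypes, and the directions were opposite. Input rose 1.09-fold (log2 fold change 0.13 ± 0.048, adjusted p = 0.0295), footprints fell to 0.783 times the WT level (-0.35 ± 0.11, adjusted p = 0.0291), and translational efficiency fell by 0.48 (SE 0.088, adjusted p = 0.00827). The last SE lies below that of the footprint change alone, since 1 variance per gene was fitted for both kinds of library. It was the only carrier of the 36 called in both input and footprints.

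The calls of Slc25a11 lay close to the threshold. That in input was lost without any 1 of the 4 input libraries, at adjusted p between 0.0526 and 0.123. The footprint call was lost without WT footprint replicate 1 (0.138), WT footprint replicate 2 (0.171) or KO footprint replicate 2 (0.0506). The translational efficiency call was lost without any 1 of the 4 input libraries (0.0504 to 0.0595). Its log2 change in translational efficiency stayed between -0.49 and -0.47 over these omissions.

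Slc25a10 encodes the dicarboxylate carrier, which exchanges malate or succinate for phosphate. Slc25a10 (ENSMUSG00000025792.9, chr11:120491837-120501161) had 741 and 720.2 normalized reads in KO input, against 714 and 714 in WT input (log2 fold change 0.033 ± 0.035, adjusted p = 0.489). Its footprints were 859.9 and 981 in KO, against 1134 and 1195 in WT, with no overlap. They fell to 0.789 times the WT level (-0.34 ± 0.076, adjusted p = 0.00284), and translational efficiency fell by 0.38 (SE 0.089, adjusted p = 0.027). The call in translational efficiency was lost without any 1 of the 4 input libraries (adjusted p 0.0822 to 0.119) or without WT footprint replicate 2 (0.0741).

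Slc25a1 is the citrate carrier, which exports citrate for fatty acid and sterol synthesis, and Slc25a20 brings in acylcarnitines for fatty acid oxidation. Slc25a1 (ENSMUSG00000003528.14, chr16:17925211-17928219) had 318 and 299 normalized reads in KO input, against 261 and 257 in WT input, and rose 1.19-fold (log2 fold change 0.25 ± 0.054, adjusted p = 0.000349). Its footprints were 311 and 281 in KO, against 322 and 343 in WT (-0.17 ± 0.13, adjusted p = 0.477). The translational efficiency change of -0.42 ± 0.12 missed the threshold (adjusted p = 0.0607), and was called with edgeR (0.0302), at 20 reads or more in every library (0.0463) and without KO footprint replicate 1 (0.0203). Slc25a20 had 109 and 114 in KO input, against 105 and 113 in WT input, and footprints of 160.0 and 171 in KO, against 212 and 216 in WT. Its translational efficiency change was -0.41 ± 0.17 (adjusted p = 0.163). It rested on 114 recovered footprint reads in KO and 194 in WT.

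**Figure D3:**
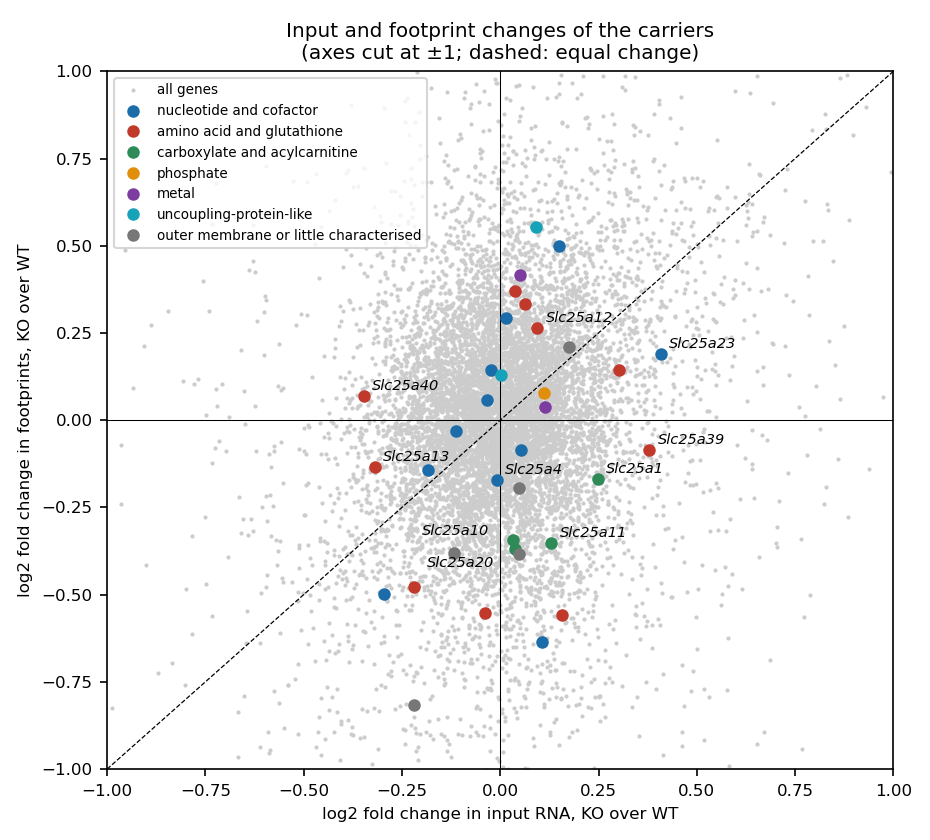
Log2 fold change (KO over WT) in footprints against that in input RNA for the carriers reported here (coloured by class) and all genes (grey), with a dashed line of equal change and axes limited to values between -1 and 1. The 4 carboxylate and acylcarnitine carriers lie below 0 in footprints and to the right of 0 in input. Slc25a10 and Slc25a20 lie to the right by less than their SE. Slc25a39 lies to the right near 0 in footprints, and Slc25a40 and Slc25a13 lie to the left.

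Slc25a3, the phosphate carrier of the inner membrane that supplies phosphate to ATP synthase, rose in input. Slc25a3 (ENSMUSG00000061904.12, chr10:91116574-91124046) had 4524 and 4591 normalized reads in KO input, against 4226 and 4211 in WT input, and rose 1.08-fold (log2 fold change 0.11 ± 0.017, adjusted p = 2.18e-06). Its footprints were 5585 and 5890.0 in KO, against 5536 and 5343 in WT, and did not overlap either (0.077 ± 0.035, adjusted p = 0.166). Its translational efficiency change was -0.035 ± 0.040 (adjusted p = 0.654).

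The metal carriers are Slc25a37 and Slc25a28, mitoferrin 1 and 2, which bring iron into mitochondria for heme and iron-sulfur clusters. Neither was called in any comparison. Slc25a37 (ENSMUSG00000034248.7, chr14:69241848-69285544) had 316 and 316 normalized reads in KO input, against 312 and 298 in WT input (log2 fold change 0.049 ± 0.052, adjusted p = 0.491). Its footprints were 22.9 and 11.8 in KO, against 10.6 and 13.8 in WT, from only 12 recovered reads in KO and 11 in WT, and a footprint difference was not detectable at this depth (0.42 ± 0.54, adjusted p = 0.702). Its translational efficiency was called higher without KO footprint replicate 2 (log2 change 0.82, adjusted p = 0.0476). Slc25a28 (ENSMUSG00000040414.7, chr19:43663801-43675006) had 131 and 138 in KO input, against 121 and 128 in WT input (0.11 ± 0.081, adjusted p = 0.29). Its footprints, 94.3 and 109 in KO against 104 and 94.3 in WT, overlapped (0.037 ± 0.24, adjusted p = 0.95). The mitoferrins differed in their footprint to input ratio, 0.0549 in KO and 0.0399 in WT for Slc25a37 and 0.757 in KO and 0.797 in WT for Slc25a28.

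The 7 uncoupling-protein-like, outer membrane and little characterised members (Slc25a14, Slc25a30, Slc25a35, Slc25a43, Slc25a45, Slc25a46 and Slc25a47) were called in no comparison. Slc25a46, whose protein acts at the outer membrane in mitochondrial dynamics, had 431 and 437 normalized reads in KO input, against 405 and 435 in WT input, and footprints of 237 and 233 in KO, against 256 and 283 in WT (log2 fold change -0.19 ± 0.15, adjusted p = 0.457). Slc25a14 had the highest footprint change of the 36, 0.55 ± 0.28 (adjusted p = 0.229), and Slc25a47 the lowest, -0.82 ± 0.62 (adjusted p = 0.457), on 5 recovered footprint reads in KO and 13 in WT. Of the 36 carriers, 7 had fewer than 10 recovered reads in at least 1 footprint library (Slc25a16, Slc25a29, Slc25a35, Slc25a37, Slc25a42, Slc25a45 and Slc25a47), with a minimum of 1 read.

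The footprint to input ratio, taken per gene from the group means, spread widely within the family. Input reads cover a whole transcript and footprints its coding part, so the ratio is given as a description and not as a rate of translation. The median ratio of the carriers was 0.800 in KO and 0.947 in WT, where the median over all genes was 1.003 in both. In the lowest 10% of all genes stood 7 carriers in KO and 6 in WT. Slc25a5, Slc25a37, Slc25a44, Slc25a51 and Slc25a16 were there in both genotypes, and Slc25a47 in KO. In the highest 10% stood 0 carriers in KO and 1 in WT, Slc25a4. The 4 highest carriers in KO were Slc25a12 (2.58), Slc25a4 (2.49), Slc25a17 (2.47) and Slc25a13 (2.43), and the same 4 were highest in WT, Slc25a4 at 2.78, Slc25a17 at 2.34, Slc25a12 at 2.30 and Slc25a13 at 2.14. The lowest 6 in WT were all among the lowest 7 in KO.

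**Figure D4:**
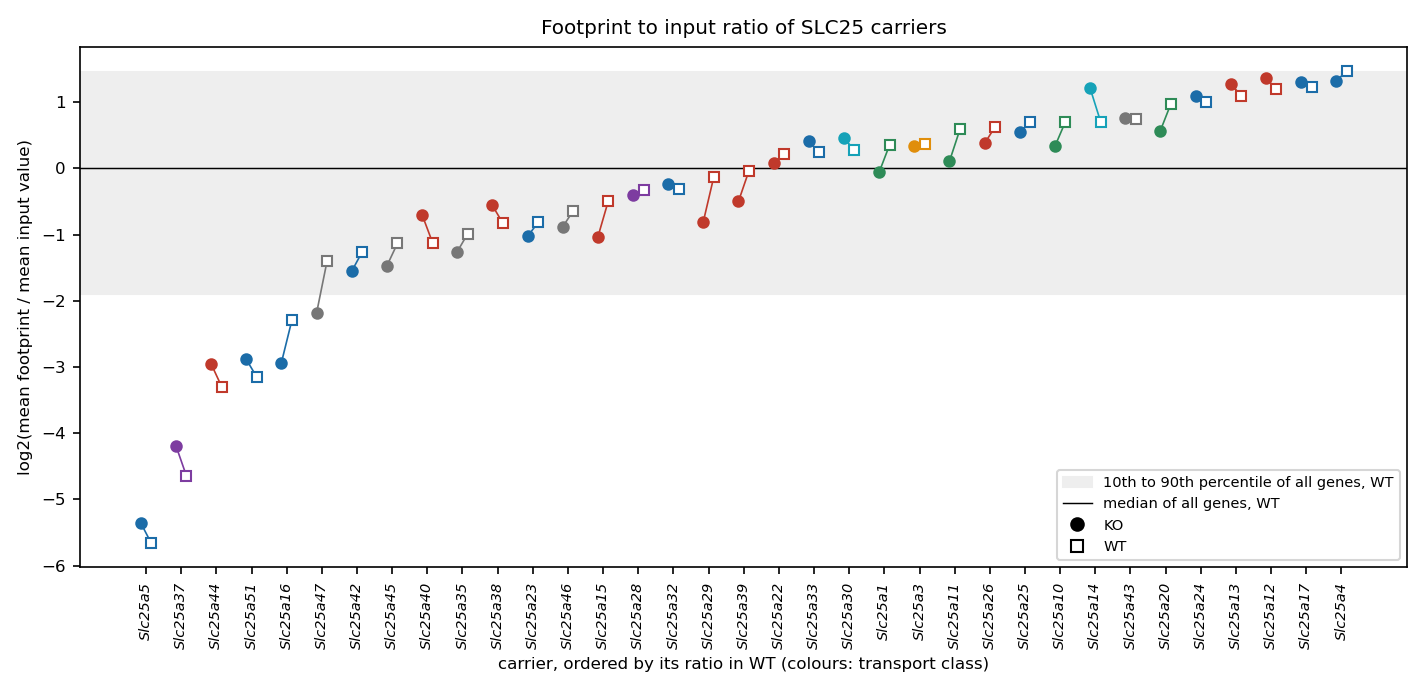
Log2 ratio of the mean footprint value to the mean input value for the carriers reported here, in KO (filled circles) and WT (open squares), ordered by the WT value and coloured by class, with the range between the 10th and 90th percentile of all WT genes shaded. Slc25a5 and Slc25a37 lie far below the shaded range in both genotypes, and the 4 carboxylate and acylcarnitine carriers are lower in KO than in WT.

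As a comparison, other mitochondrial transport genes were counted from a list made by function. Its 32 names stand for 31 genes, since Tmbim5 is a synonym of Ghitm, and 27 of these were measured. In input 11 rose and 5 fell, 59.3% of the 27, where 36.4% of all genes were called. In footprints 0 rose and 3 fell (11.1%, where 12.5% of all genes were called), and in translational efficiency 1 rose and 4 fell (18.5%, where 9.78% of all genes were called). The falls in both include Sfxn4, with 1 footprint read in each KO library. The rise is that of Abcb6, on very few input reads. Mtch1 and Mtch2, outer membrane relatives of the SLC25 family, both rose in input (log2 fold changes 0.31 ± 0.027 and 0.12 ± 0.042), as did Mpc1 and Mpc2, the subunits of the pyruvate carrier (0.16 ± 0.064 and 0.25 ± 0.083). Vdac1, the main channel of the outer membrane through which the cargo of the inner membrane carriers also passes, had 3108 and 3087 normalized reads in KO input, against 2977 and 3004 in WT input. Its footprints were 2999 and 2933 in KO, against 4188 and 4138 in WT. All KO footprint values lay below the WT values, and footprints fell to 0.713 times the WT level (-0.49 ± 0.040, adjusted p = 1.16e-09) and translational efficiency by 0.54 (SE 0.034, adjusted p = 1.82e-05). The translational efficiency of Mtch1 fell by 0.29 and that of Smdt1, a subunit of the calcium uniporter, by 0.41.

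In the authors' deposited table, 0 of the 36 carriers carry an Up or Down call for translational efficiency, where 94 genes of all are Up and 183 Down. The authors' deposited table gives an adjusted p below 0.05 to 4 of the 36 carriers, and to 1023 of all 10453 genes. The log2 fold changes of these 4 were -0.16 for Slc25a4 (adjusted p = 0.000986), -0.37 for Slc25a10 (0.00226), -0.48 for Slc25a11 (0.00721) and -0.46 for Slc25a39 (6.45e-05). DESeq2 on the recovered reads also called 1023 genes and these 4 carriers. Both rest on the same reads, so the deposited values are not separate evidence.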

How the data were processed

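Input RNA and ribosome footprints of KO and WT B16 cells were analysed, in 8 libraries with 2 per group, grouped by the labelled genotype and kind of library. The deposited table holds 10453 genes with 8 columns of normalized read counts, treated here as a signal made by the authors, in which each library's values are whole multiples of what 1 read is worth, per the values. Of these values 100% were whole within 0.001 of a read, so whole reads were recovered from the deposited signal. Per the file headers, each gene further has the authors' log2 fold change for translational efficiency with its deposited p-value, an adjusted p-value and a call. Bowtie and mm10 (the same assembly as GRCm38.p6) are named per the submitters' processing notes, while neither the counter nor the handling of multiply matching reads or strand is stated (not given in the sources used here). The labels name a pair of library kits, and call the input both polyadenylated and rRNA-depleted, which the sources used here do not settle. By gene ID, 16 symbols deposited as dates were restored, and 10452 IDs matched the name table. 0 sample columns were left unmapped.

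KO and WT were compared in R 4.3.3 by limma-trend from limma 3.58.1, with values as log2(value + 1), a scale that understates the change of low genes, applied where a gene's mean value was 1 or more. Input and footprint libraries were fitted alone (2 against 2), and translational efficiency was taken as the genotype-by-kind interaction across 8 libraries, with 1 variance per gene for both kinds. The SE of a change in translational efficiency can therefore understate the spread of footprints. With the standard errors of separate fits combined, the 4 carrier calls in translational efficiency were kept and Slc25a13 was added. Two-sided p-values were adjusted over all genes tested by the Benjamini-Hochberg method, with a threshold of 0.05. The scripts were tested on simulated data. Alternatives were edgeR 4.0.16, DESeq2 1.42.0 and limma-voom on the recovered reads, TMM scaling, centring, pseudocounts of 0.5 and 5, no filter, at least 20 reads, no trend, both kinds fitted together, combined standard errors, a replicate block and leaving out each library. The members and lists were chosen with earlier results of these data known. Values of every library are given for carriers called in footprints or translational efficiency, the 8 largest changes called in input, phosphate and metal carriers, and the pairs Slc25a4 with Slc25a5 and Slc25a12 with Slc25a13. An item that these rules name is counted in the totals but not reported here. Values of other members and of listed genes given singly were chosen after they were seen. Promoters and coordinates are from RefSeq, GRCm38.p6, with 28 of 36 carriers matched in the promoter table.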

Additional observations from a re-analysis of the deposited data

How the results depend on the processing

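Over the alternatives no carrier called in a comparison changed direction. The number of carriers called moved with how variance was modelled. Without the variance trend, limma called 3 in input, 0 in footprints (6 at an unadjusted p below 0.05) and 1 in translational efficiency, against 11, 4 and 4. Over all genes that setting called 1276, 0 (1807 at an unadjusted p below 0.05) and 133. In a separate alternative, edgeR called 5 carriers in footprints after adjustment. DESeq2 called 6 carriers in input and 1 in footprints (1721 and 460 of all genes), and it gave 8 of the named carriers no adjusted p in footprints. Fitting both kinds together called 3 carriers in input (829 of all genes) and 2311 genes in footprints. Leaving out 1 library gave 7 to 9 carriers in input, 2 to 5 in footprints and 1 to 7 in translational efficiency, and over all genes 2856 to 3442, 788 to 1391 and 419 to 1719. The median SE over all genes was 0.060 in input and 0.169 in footprints, and the fit of translational efficiency takes 1 variance per gene from both kinds. The cause of these ranges was not tested. The fewest carriers came without KO input replicate 2 in input (7), without WT footprint replicate 1 in footprints (2) and without WT input replicate 1, KO input replicate 1 or KO input replicate 2 in translational efficiency (1 each). Input calls of Slc25a13 and Slc25a39 held under every alternative run.

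With the replicate number as a block, 11, 4 and 4 carriers were called in input, footprints and translational efficiency (3877, 1548 and 938 of all genes). Same-numbered libraries did not deviate together (correlations -0.0090 to 0.0066), so the numbers were not used to pair them.

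The carriers called under an alternative and not otherwise were Slc25a13, Slc25a3, Slc25a14, Slc25a20 and Slc25a26 in footprints, and Slc25a1, Slc25a5, Slc25a13, Slc25a16, Slc25a29 and Slc25a37 in translational efficiency. Signs that turned when a library was left out belonged to values not called with all libraries, of which Slc25a5 and Slc25a37 were called higher in translational efficiency at the upper end of their range. The log2 changes in translational efficiency ranged over -0.073 to 0.0037 for Slc25a3, -0.021 to 0.72 for Slc25a5, -0.42 to 0.11 for Slc25a22, -0.18 to 0.029 for Slc25a28, -0.23 (or -0.018) to 0.31 for Slc25a32 and -0.081 to 0.82 for Slc25a37. In footprints they ranged over -0.12 to 0.41 for Slc25a22, -0.069 (or -0.033) to 0.14 for Slc25a28, -0.41 to 0.13 for Slc25a32 and -0.032 to 0.86 for Slc25a37, and in input over -0.029 to 0.011 (or 0.0093) for Slc25a4. Of the 36 carriers, 7 had fewer than 10 recovered reads in a footprint library, and the part of depth in these ranges was not tested.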

Other observations

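The 36 carriers together took 0.391% and 0.390% of normalized reads in KO input, against 0.370% and 0.373% in WT input, and 0.357% and 0.363% in KO footprints, against 0.394% and 0.385% in WT footprints. Of the family's normalized reads, not corrected for length, Slc25a5 made up 26.2% and 25.9% in KO input, against 24.9% and 24.8% in WT input, but 0.574% and 0.617% in KO footprints, against 0.508% and 0.309% in WT footprints. Slc25a4 made up 17.3% and 16.8% in KO input, against 17.9% and 18.3% in WT input, and 39.8% and 39.5% in KO footprints, against 42.2% and 42.0% in WT footprints.

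Abcb6, an ABC transporter of porphyrins on the list of mitochondrial transport genes, was listed with 3.37 and 3.91 normalized reads in KO input, against 6.78 and 8.69 in WT input, while its footprints were 671 and 747 in KO, against 591 and 632 in WT. Its translational efficiency rose by 1.12 on the log2 scale (limma, adjusted p = 0.0283), on very few input reads. Sfxn4, a sideroflexin, had footprints of 2.86 and 2.95 in KO, against 12.7 and 20.7 in WT. The KO values are worth 1 read in each library, the lowest count in the data.

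Of the 28 carriers with a promoter in the RefSeq table (250 bases before to 50 after the start, both strands searched), 6 held the ETS letters CCGGAAG (21.4%, against 9.93% of all genes), namely Slc25a3, Slc25a4, Slc25a17, Slc25a20, Slc25a25 and Slc25a38. Here all genes are the 27025 of the promoter table, which were not limited to genes measured in these cells as the carriers were. The E-box letters CACGTG stood in 5 carriers (17.9%, against 8.09% of all genes) and the NRF1 core letters GCATGC in 1 (3.57%, against 8.93%). The ERR letters AAGGTCA and the C/EBP-ATF letters TGATGNAA were in 0 of these windows, the CRE letters TGACGTCA and the YY1 letters AAGATGGCG in 1 each, and none of these motifs contains another. A match is a description of letters and not of binding.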
